A study of Mus musculus with 6 samples.

Results

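Interferon-stimulated genes are genes whose transcription rises when a cell meets a type I or type II interferon. Here 35 of them were followed in group 2 innate lymphoid cells (ILC2s) from mouse lung. The genes were taken by symbol from a list of 39, of which 35 had a row among the 18543 genes of the count table. Ifit3, Ifit3b, Oas2 and Ifi44 were not analysed here. ILC2s are tissue lymphocytes without rearranged antigen receptors that release type 2 cytokines when epithelial cells send out IL-33. Messenger RNA was measured in 6 libraries of sorted lung ILC2s from C57BL/6 mice aged 8 weeks, 3 labelled wild-type (WT 1 to WT 3) and 3 labelled Atg5-/- (KO 1 to KO 3). Every mouse, in both groups, had received 0.5 µg of recombinant mouse IL-33 through the nose on each of 3 consecutive days, and cells were isolated on day 4, so no library stands for unstimulated cells. Atg5 encodes a part of the machinery that attaches LC3 to autophagosome membranes. The labels name no Cre driver, no deleted exons and no pooling of animals. They do not say that the triplicates came from separate mice, so p-values measure only the spread between these libraries, which may be technical.

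Type I interferons bind the receptor chains encoded by Ifnar1 and Ifnar2, whose kinases JAK1 and TYK2 phosphorylate transcription factors such as STAT2. With IRF9, STAT2 is part of a complex that binds interferon-stimulated response elements in promoters. Type II interferon (interferon gamma) binds the chains encoded by Ifngr1 and Ifngr2, acts through JAK1 and JAK2, and leads to transcription from gamma-activated sites. The induced genes encode sensors of foreign nucleic acid, proteins that block viral replication, and GTPases that act on vacuoles holding intracellular microbes. Interferons are known to restrain the growth and cytokine output of ILC2s.

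Levels are given as CPM, the depth-scaled count, taken over the TMM-adjusted library size, and changes as log2 fold changes of knockout minus wild type from edgeR's quasi-likelihood test, with p-values adjusted over all genes tested and a threshold of 0.05. Totals were 28827545 to 33662979 estimated counts per library, at which 3 counts, the floor for a gene at 0, equal 0.0892 to 0.104 CPM. That floor covers counting error only, since the labels describe no molecular identifiers that would separate molecules from copies. All 16 listed ILC2 markers were detected in every library, from Il5 at 5352 to 9194 CPM and Gata3 at 900 to 1559 CPM down to Il17rb at 3.17 to 28.2 CPM and Thy1 at 0.67 to 9.85 CPM. The targeted gene went against the label of WT 3 and was also high in KO 3. Atg5 had 66.3, 71.8 and 21.8 CPM under the wild-type label, in replicate order, and 23.0, 25.6 and 52.2 CPM under the knockout label, so that the WT 3-labelled library lay below every library labelled knockout and KO 3 lay between the other knockout libraries and WT 1. Knockout minus wild type was -0.67 for Atg5 (SE 0.50, adjusted p = 0.478) with all 6 libraries and -1.03 (SE 0.33, adjusted p = 0.0489) without the WT 3-labelled library. Across 14052 tested genes the log2 CPM of that library correlated at 0.979 with KO 1 and with KO 2 but at 0.928 and 0.931 with WT 1 and WT 2, which correlated at 0.982 with each other. KO 3 correlated at 0.963 with KO 1 and at 0.910 with WT 1, so its overall profile, unlike its Atg5 level, was nearer to the knockout libraries. Genes are not independent replicates, so these are descriptions of libraries. Libraries were kept under their labels, each direction is one between labels, and results are given with all 6 libraries and without the WT 3-labelled library, with the count without both libraries numbered 3 beside them.

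The 2 promoter motifs of the pathway were searched in the 250 bases before the RefSeq transcription start of each gene (RefSeq windows on GRCm38.p6, the assembly called mm10). The searched forms were GAAA, any 2 bases and again GAAA, the core of the interferon-stimulated response element, and TTCNNNGAA, the gamma-activated site, each on both strands and each counted independently of any overlap with the other. A window was found for 27 of the 35 genes, and 13 of these 27 held the response element core, against 2.46% of 9623 other tested genes with 1 window each. Over all 32851 windows the share was 2.98%. The gamma-activated site was in 9 of 27 windows, against 5.72% of the other tested genes, and 5 windows held both motifs. Complete windows of 4 genes are shown because they mark the range of the results: Oas3 and Gbp7 have a core and are highest in WT 1 and WT 2, Bst2 has a pair of cores and an even level, and Isg20, about as much lower as Oas3, has no core. Sequences run 5′ to 3′ on the strand of the gene, and capitals mark the core, read on either strand.
Oas3 (chr5:120777660-120777909, reverse strand): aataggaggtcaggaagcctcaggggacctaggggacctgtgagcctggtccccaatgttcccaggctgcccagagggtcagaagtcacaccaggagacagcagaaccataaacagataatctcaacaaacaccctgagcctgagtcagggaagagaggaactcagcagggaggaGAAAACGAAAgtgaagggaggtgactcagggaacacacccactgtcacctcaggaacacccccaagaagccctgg
Gbp7 (chr3:142530086-142530335, forward strand): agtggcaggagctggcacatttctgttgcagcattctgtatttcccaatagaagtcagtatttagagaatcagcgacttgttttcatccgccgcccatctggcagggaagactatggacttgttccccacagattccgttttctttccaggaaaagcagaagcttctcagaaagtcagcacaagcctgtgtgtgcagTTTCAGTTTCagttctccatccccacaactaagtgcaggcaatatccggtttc
Bst2 (chr8:71537473-71537722, reverse strand): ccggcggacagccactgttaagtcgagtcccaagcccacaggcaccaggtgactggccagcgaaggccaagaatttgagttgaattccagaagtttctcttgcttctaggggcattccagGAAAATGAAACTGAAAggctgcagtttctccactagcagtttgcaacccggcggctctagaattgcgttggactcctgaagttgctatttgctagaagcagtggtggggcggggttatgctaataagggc
Isg20 (chr7:78913174-78913423, forward strand): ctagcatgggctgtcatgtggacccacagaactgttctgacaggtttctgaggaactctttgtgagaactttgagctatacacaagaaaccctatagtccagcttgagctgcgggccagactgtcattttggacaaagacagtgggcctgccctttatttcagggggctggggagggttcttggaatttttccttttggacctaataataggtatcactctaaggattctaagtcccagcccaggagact

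The other 10 windows with a core are shown by the 30 bases around it, to let the arrangement of single and repeated cores be compared.
Isg15 (chr4:156200871-156200900, reverse strand): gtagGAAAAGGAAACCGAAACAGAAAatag
Oas1a (chr5:120907526-120907555, reverse strand): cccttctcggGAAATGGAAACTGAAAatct
Ifit1 (chr19:34640784-34640813, forward strand): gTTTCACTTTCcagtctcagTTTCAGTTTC
Rsad2 (chr12:26456553-26456582, reverse strand): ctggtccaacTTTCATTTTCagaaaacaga
Stat2 (chr10:128270266-128270295, forward strand): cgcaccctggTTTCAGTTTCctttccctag
Igtp (chr11:58199512-58199541, forward strand): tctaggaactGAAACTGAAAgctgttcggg
Irgm2 (chr11:58214903-58214932, forward strand): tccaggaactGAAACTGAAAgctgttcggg
Irgm1 (chr11:48871428-48871457, reverse strand): gtttcaaGAAATAGAAACCGAAActgattc
Gbp2 (chr3:142620594-142620623, forward strand): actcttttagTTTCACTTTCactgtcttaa
Gbp3 (chr3:142559992-142560021, forward strand): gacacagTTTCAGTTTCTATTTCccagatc

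In Isg15 3 overlapping cores began 78, 72 and 66 bases before the start, and in Bst2, Oas1a, Irgm1 and Gbp3 a pair of cores overlapped. The cores of Ifit1, 104 and 85 bases before the start, did not overlap. The start that RefSeq gives for Irgm2 lies 15359 bases from the start in the deposited table, where the models of Irgm2 and Igtp overlap. A match is a description of letters in a window and not a bound site, and a window without a match says nothing about sites elsewhere.

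As a group, the interferon-stimulated genes were about 2 times as abundant in WT 1 and WT 2 as in the other libraries. Their CPM summed to 1405 and 1420 in WT 1 and WT 2, to 687 in the WT 3-labelled library, and to 689, 815 and 745 in KO 1, KO 2 and KO 3. With all 6 libraries 0 of 31 tested genes passed, as did 0% of the 14052 genes tested in either direction. At an unadjusted p under 0.05 there were 12 of the 31, all lower in knockout, where 10.4% of all tested genes were lower and 3.99% higher by that rule. DESeq2 on the same counts called 2 lower, Isg20 and Oas1a (adjusted p = 0.0191 and 0.0446), against 2.19% of all genes, and 0 higher, against 0.107%. Adjusted p-values of the 31 genes in edgeR's fit ran from 0.342 to 0.998, and 27 of the 31 estimates were negative. The median log2 fold change was -0.86 over the 31 genes and 0.02 over all tested genes. Without the WT 3-labelled library, 20 of 32 tested genes fell, against 16.1% of all genes tested there, and 0 rose, against 17.7%. In that fit the medians were -1.11 over the 32 genes and 0.02 over all genes. Without both libraries numbered 3, 23 of 32 fell and 0 rose, against 22.7% of all genes lower and 22.7% higher. Oasl1, Mx2 and Rsad2 were too low to be tested in either fit, and Mx1 was tested only without that library. A gene that is high in WT 1 and WT 2 alone can enter the second fit through those 2 libraries. The choice of the library to leave out rests on Atg5 and on the overall profile, both read from these same libraries.

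**Figure D1:**
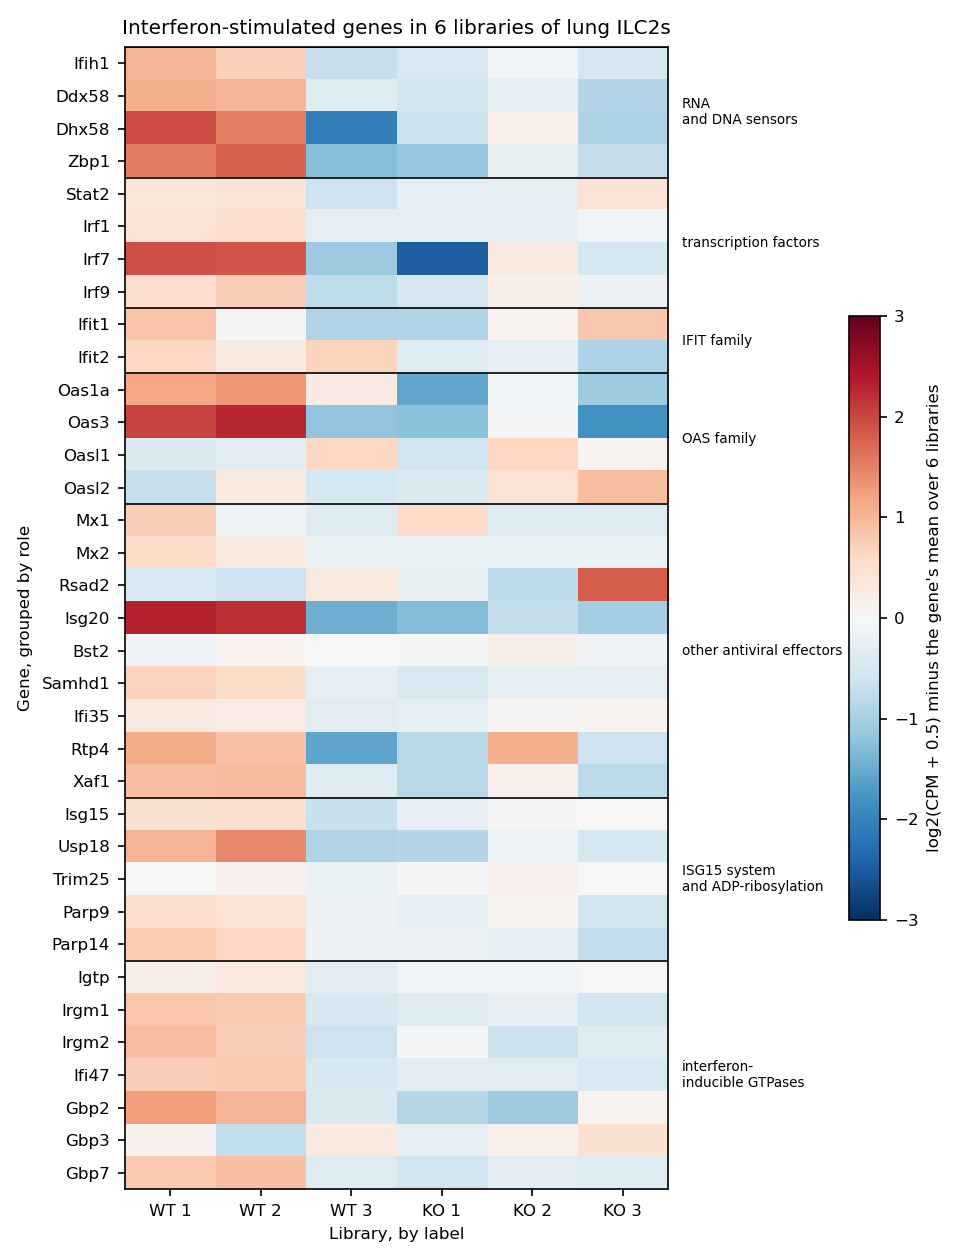
Rows are the 35 interferon-stimulated genes grouped by role and columns the 6 libraries by label; colour is log2(CPM + 0.5) minus the gene's mean over the 6 libraries, red above and blue below that mean. WT 1 and WT 2 are red in most rows, while the WT 3-labelled library resembles the 3 knockout libraries, and Bst2 and Trim25 are near white throughout.

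The WT 3-labelled library did not sit with its group in these genes. It lay below both WT 1 and WT 2 in 27 of 31 tested genes, a position held in 43.0% of all tested genes. Its level was below all 3 knockout libraries in 14 (22.5% of all tested genes), within their range in 14 (55.8%) and above all of them in 3 (21.6%). Those 3, Ifit2, Oas1a and Samhd1, were thereby the only tested genes of the list whose groups did not overlap with knockout lower, where 9.22% of all genes were so separated. No gene of the list was separated with knockout higher (9.26% of all genes). Among the knockout libraries, KO 2 had the highest level in 20 of 31 genes, against 30.6% of all genes, KO 3 in 9 and KO 1 in 2.

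All 4 sensors of foreign nucleic acid fell when the WT 3-labelled library was left out, where 16.1% of all tested genes fell. Ddx58, which encodes RIG-I, the sensor of viral RNA ends, was at 176 and 169 CPM in WT 1 and WT 2, 64.3 CPM in the WT 3-labelled library and 56.0, 68.2 and 45.2 CPM in KO 1 to KO 3. Zbp1, the sensor of Z-form nucleic acid that can start necroptosis, was at 44.9, 53.1 and 5.97 CPM in the wild-type libraries and 6.65, 12.9 and 9.06 CPM in the knockout libraries. In both genes the WT 3-labelled library was within or below the knockout range, so the groups overlapped. Ifih1, which encodes MDA5, the sensor of long double-stranded RNA, was at 21.7, 17.3 and 6.26 CPM under the wild-type label and 7.52, 9.76 and 7.24 CPM under the knockout label. Dhx58, which encodes LGP2, a partner of MDA5, was at 12.3, 8.97 and 0.298 CPM and at 1.63, 3.21 and 1.24 CPM, with its lowest value, 9 counts, in the WT 3-labelled library. With all 6 libraries the 4 had adjusted p-values of 0.342 to 0.389. Without that library all 4 fell: Ddx58 by 1.60 (SE 0.16, adjusted p = 0.000509), Zbp1 by 2.35 (SE 0.27, adjusted p = 0.000762), Ifih1 by 1.25 (SE 0.22, adjusted p = 0.0047) and Dhx58 by 2.38 (SE 0.42, adjusted p = 0.00511), each a log2 fold change.

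Of 4 transcription factors of the response 3 fell without the WT 3-labelled library, where 16.1% of all tested genes fell. Irf7, the factor that amplifies type I interferon production, was at 24.2 and 23.3 CPM in WT 1 and WT 2, 2.55 CPM in the WT 3-labelled library and 0.658, 7.35 and 3.99 CPM in KO 1, KO 2 and KO 3. Within the knockout libraries KO 1 was lowest and KO 2 highest. The model of Irf7 overlaps Phrf1, on the opposite strand and at a mean of 85.5 CPM, and the sources used here do not give whether counting used strand. Irf1, a factor induced chiefly by interferon gamma, was at 97.5, 104 and 60.4 CPM under the wild-type label and 60.0, 61.4 and 68.9 CPM under the knockout label. Irf9, a DNA-binding part of the complex with STAT2, was at 51.6, 60.4 and 21.0 CPM and at 25.0, 41.2 and 31.7 CPM, in a model that overlaps Rnf31 on the same strand. Stat2 was at 47.7, 48.3 and 23.8 CPM and at 30, 29.7 and 50 CPM, so that KO 3 reached the level of WT 1 and WT 2 and the WT 3-labelled library was lowest. Without that library Irf7 fell by 2.55 (SE 0.71, adjusted p = 0.0306), Irf1 by 0.66 (SE 0.10, adjusted p = 0.00296) and Irf9 by 0.77 (SE 0.21, adjusted p = 0.0271). Stat2 did not pass (-0.39, SE 0.24, adjusted p = 0.258) unless KO 3 was left out as well (-0.68, SE 0.11, adjusted p = 0.000855).

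**Figure D2:**
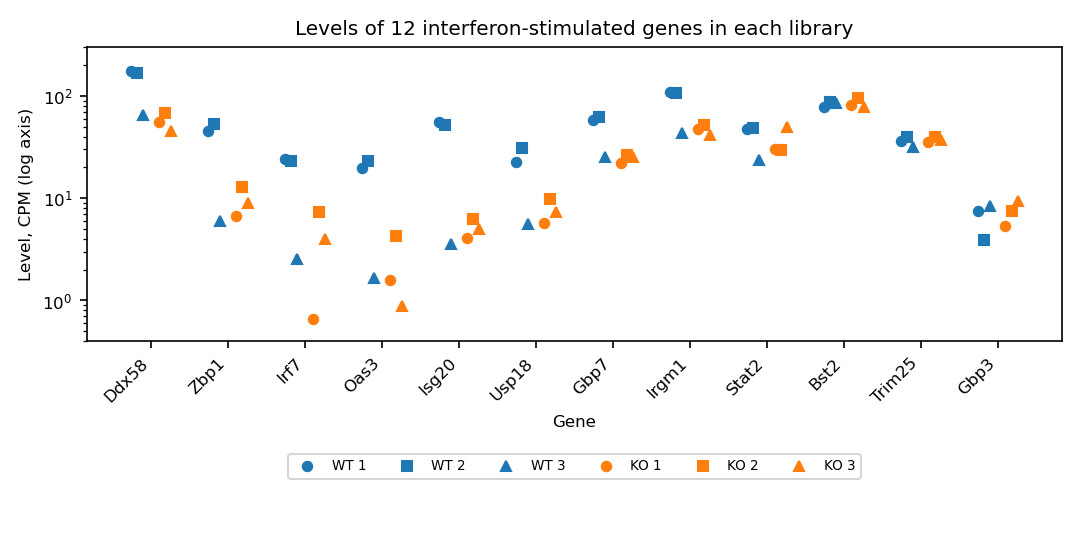
Each point is the level of 1 gene in 1 library in CPM on a log axis, for 12 interferon-stimulated genes; blue is the wild-type and orange the knockout label, and the marker shape is the replicate number. In the 8 genes on the left the blue triangle, the WT 3-labelled library, sits among or below the orange points, in Stat2 the orange triangle, KO 3, sits with WT 1 and WT 2, and Bst2 and Trim25 have 1 level in all libraries.

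In the OAS family, whose enzymes make 2-5A, the messenger that switches on RNase L, Oas3 and Oas1a fell without the WT 3-labelled library and the other 2 measured members stayed near or below 1 CPM. Oas3 was at 19.6 and 22.9 CPM in WT 1 and WT 2, 1.66 CPM in the WT 3-labelled library and 1.59, 4.22 and 0.893 CPM in KO 1 to KO 3. Oas1a was at 6.20, 6.94 and 3.05 CPM under the wild-type label and 0.520, 2.35 and 0.925 CPM under the knockout label. Oas1a was 1 of the 3 genes with groups that did not overlap, although its neighbours of the Oas1 cluster are similar in sequence and the sources used here do not give how shared reads were divided. Without the WT 3-labelled library, Oas3 fell by 3.23 (SE 0.56, adjusted p = 0.00438) and Oas1a by 2.36 (SE 0.58, adjusted p = 0.0187). Oasl2, which encodes an OAS-like protein, was at 0, 0.491 and 0.0663 CPM and at 0.104, 0.595 and 1.05 CPM. It did not pass (1.25, SE 1.44, adjusted p = 0.56). Oasl1, which encodes a related protein known to repress Irf7 translation, was at most 0.663 CPM. Ifit1, which binds viral RNA without the host cap methylation, was as low, at 1.18, 0.458 and 0 CPM under the wild-type label and 0, 0.506 and 1.12 CPM under the knockout label. Ifit2 was at 3.51, 2.62 and 3.71 CPM and at 1.49, 1.61 and 0.862 CPM, groups that did not overlap. In this gene the WT 3-labelled library was the highest of all 6. Ifit2 did not pass with all 6 libraries (-1.31, SE 0.39, adjusted p = 0.342) or without that library (-1.21, SE 0.42, adjusted p = 0.065).

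Among the other antiviral effectors, Isg20 had the largest fall of the list in the fit without the WT 3-labelled library, and 3 of 9 measured genes were too low to be tested with all 6 libraries. Isg20, a 3' to 5' exonuclease of RNA, was at 55.5 and 51.8 CPM in WT 1 and WT 2, 3.55 CPM in the WT 3-labelled library and 4.05, 6.31 and 4.98 CPM in KO 1, KO 2 and KO 3. Without the WT 3-labelled library it fell by 3.38 (SE 0.20, adjusted p = 8.04e-05), which is 10.4-fold lower. With all 6 libraries the estimate was -2.85 (SE 0.88, adjusted p = 0.342), and in some other fits, such as limma-voom (-2.10 against -2.29), Oas3 was the lower of the pair. Samhd1, which hydrolyses the nucleotides that reverse transcription needs, was at 88.8, 81.3 and 46.4 CPM and at 39.6, 45.5 and 45.3 CPM. Its groups did not overlap, but the gap between the WT 3-labelled library and KO 2 was below 1 CPM. Xaf1, a pro-apoptotic partner of XIAP, was at 21.4, 22.1 and 8.49 CPM and at 6.03, 12.5 and 6.16 CPM. In the fit without that library Samhd1 fell by 0.96 (SE 0.11, adjusted p = 0.000874) and Xaf1 by 1.39 (SE 0.34, adjusted p = 0.0177). Ifi35, at 121, 118 and 81.1 CPM and at 83.1, 103 and 107 CPM, did not pass (-0.29, SE 0.12, adjusted p = 0.122) unless KO 3 was left out too (-0.35, SE 0.11, adjusted p = 0.0212). Rtp4, a chaperone of receptors that also restrains some viruses, was at 2.75, 2.26 and 0 CPM and at 0.346, 2.65 and 0.479 CPM, so KO 2 reached the level of WT 1 and WT 2 (-1.10, SE 0.83, adjusted p = 0.362). Bst2, which encodes tetherin, was even, at 77.3, 86.3 and 84.8 CPM and at 82.1, 94.4 and 77.4 CPM (0.06, SE 0.12, adjusted p = 0.768).

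Mx1, Mx2 and Rsad2, often used as signs of a type I interferon response, were barely measurable. Mx1, a GTPase whose gene is defective in C57BL/6 mice, had at most 18 counts in a library (0.590 CPM, in WT 1). Mx2 was at 0.361 and 0.196 CPM in WT 1 and WT 2 and at 0 in the other 4 libraries. Rsad2, which encodes viperin, was at 0.131, 0.0655 and 0.563 CPM and at 0.242, 0 and 2.55 CPM, highest in KO 3. Mx2 and Rsad2 were not tested with all 6 libraries or without the WT 3-labelled library. Mx1 did not pass without the WT 3-labelled library (-1.10, SE 1.70, adjusted p = 0.671). For these genes no difference between the groups was shown.

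The ISG15 system and the ADP-ribosyltransferases that travel with it showed 3 of 5 genes lower without the WT 3-labelled library. Of all tested genes 16.1% were lower in that fit. Usp18, the protease that removes ISG15 and blocks the type I receptor, was at 22.7 and 30.7 CPM in WT 1 and WT 2, 5.57 CPM in the WT 3-labelled library and 5.68, 9.88 and 7.37 CPM in KO 1 to KO 3. It fell by 1.79 without that library (SE 0.27, adjusted p = 0.00236). Parp9, at 63.3, 60.1 and 38.8 CPM and at 35.9, 45.5 and 30.1 CPM, fell by 0.72 (SE 0.18, adjusted p = 0.0187), in a model that overlaps Dtx3l on the opposite strand. Parp14, at 19.3, 17.3 and 9.81 CPM and at 9.91, 9.04 and 6.48 CPM, fell by 1.10 (SE 0.23, adjusted p = 0.00997). Isg15, the ubiquitin-like modifier itself, was low and did not pass: it was at 3.84, 3.99 and 1.52 CPM and at 2.18, 2.62 and 2.68 CPM (-0.64, SE 0.30, adjusted p = 0.148). Trim25, a ubiquitin ligase that assists RIG-I, was even at 36.2, 39.6 and 31.7 CPM and at 35.1, 39.6 and 37.0 CPM (-0.02, SE 0.12, adjusted p = 0.927). Usp18 and Isg15 were both lower in every knockout library than in WT 1 and WT 2, but only Usp18 passed. Isg15 had 46 to 122 counts per library, and the difference in change between these genes was not tested.

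Of the interferon-inducible GTPases 5 of 7 fell without the WT 3-labelled library, where 16.1% of all tested genes fell. Irgm1, an immunity-related GTPase that regulates its relatives and is linked to autophagy, was at 110 and 106 CPM in WT 1 and WT 2, 43.7 CPM in the WT 3-labelled library and 47.8, 51.8 and 41.6 CPM in KO 1 to KO 3. Ifi47, a GTPase of the same family, was at 116, 120 and 49.5 CPM and at 55.4, 55.5 and 50.4 CPM. In both genes the WT 3-labelled library was close to or below the knockout libraries. Irgm2 was at 13.8, 12.1 and 4.41 CPM and at 6.93, 4.34 and 5.39 CPM. Irgm1 fell by 1.19 (SE 0.12, adjusted p = 0.000444), Ifi47 by 1.13 (SE 0.10, adjusted p = 0.000269) and Irgm2 by 1.22 (SE 0.26, adjusted p = 0.0107). Igtp, which encodes Irgm3, was at 61.5, 67.0 and 43.5 CPM and at 51.5, 51.0 and 53.8 CPM and did not pass (-0.30, SE 0.10, adjusted p = 0.0647) unless KO 3 was left out too (-0.32, SE 0.10, adjusted p = 0.0278). Igtp overlaps the model of Irgm2 on the same strand, so reads of the pair may have been shared.

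The guanylate-binding proteins, large GTPases that coat microbial vacuoles, include 3 genes of the list, of which Gbp7 and Gbp2 fell without the WT 3-labelled library and Gbp3, between them, did not pass. Gbp7, Gbp3 and Gbp2 are neighbours on chromosome 3, where their genes run from 142530342 to 142550149, 142560026 to 142573209 and 142620602 to 142638008 on the forward strand of mm10. Gbp7 was at 57.9 and 62.3 CPM in WT 1 and WT 2, 25.5 CPM in the WT 3-labelled library and 22.0, 26.3 and 25.5 CPM in KO 1 to KO 3. Gbp2 was at 20.3, 17.4 and 6.03 CPM and at 4.40, 3.72 and 8.78 CPM. Both were lower in knockout than in WT 1 and WT 2 and fell in the fit without the WT 3-labelled library, Gbp7 by 1.28 (SE 0.13, adjusted p = 0.000465) and Gbp2 by 1.74 (SE 0.37, adjusted p = 0.0105). Gbp3 was at 7.41, 3.86 and 8.35 CPM and at 5.40, 7.50 and 9.48 CPM (0.41, SE 0.37, adjusted p = 0.448). Other genes of the family lie outside the list, 4 of them on chromosome 5 and Gbp5 on chromosome 3. Gbp4 was at 333 and 295 CPM in WT 1 and WT 2, 65.6 CPM in the WT 3-labelled library and 61.1 to 70.1 CPM under the knockout label (-2.27, SE 0.10, adjusted p = 3.62e-05 without the WT 3-labelled library). Gbp6 was at 88.6, 84.0 and 18 CPM and at 13.0 to 20.5 CPM (-2.47, SE 0.21, adjusted p = 0.00027). Gbp8 (-2.12, SE 0.28, adjusted p = 0.00151) and Gbp9 (-1.61, SE 0.27, adjusted p = 0.00411), also on chromosome 5, fell too, and Gbp5 did not pass (-0.06, SE 0.40, adjusted p = 0.926). These genes are close relatives, so counts of single members are uncertain. The difference in change between members was not tested.

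**Figure D3:**
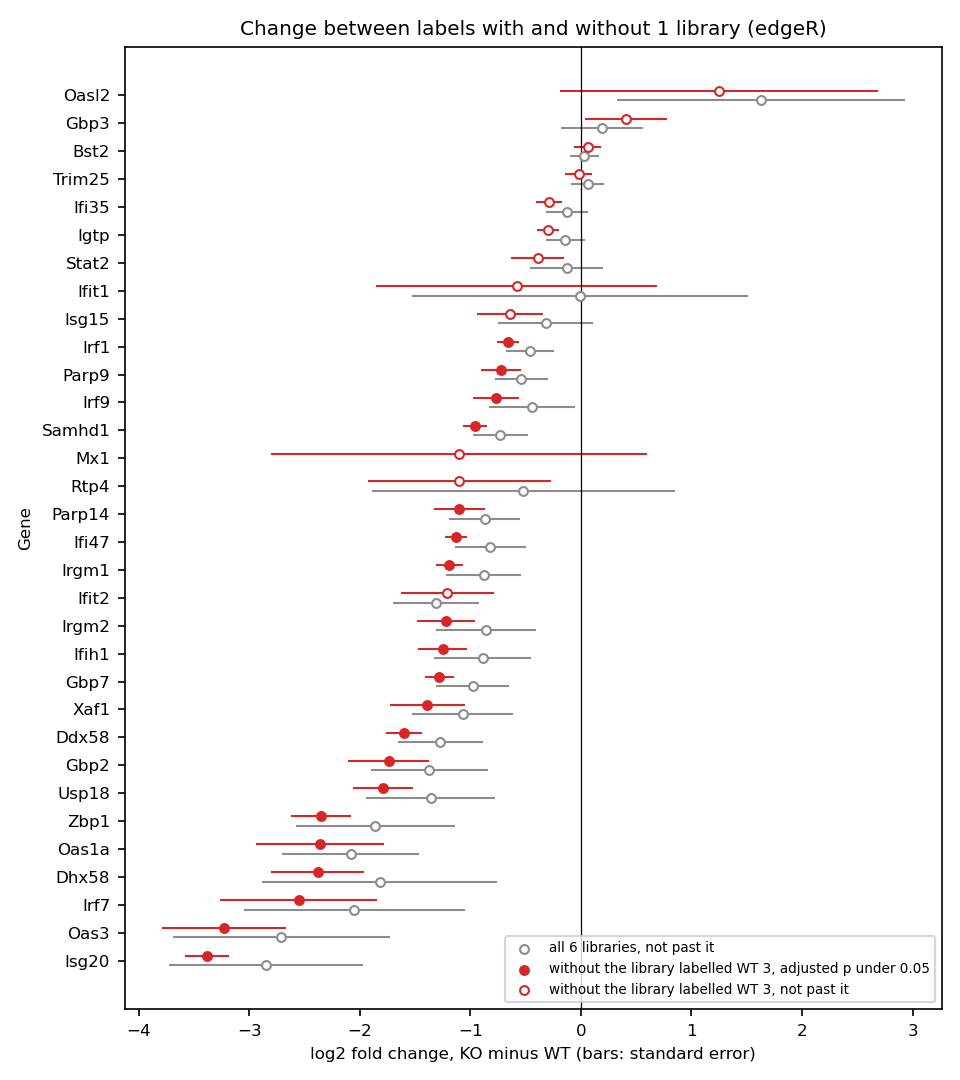
Each point is the log2 fold change, knockout minus wild type, of 1 interferon-stimulated gene in edgeR's fit, with its standard error as a bar; grey is the fit to all 6 libraries and red the fit without the WT 3-labelled library, filled where the adjusted p is under 0.05. The 20 filled points run from -3.38 for Isg20 to -0.66 for Irf1, all grey points are open, and Oasl2, Gbp3, Bst2 and Trim25 lie at or right of 0 in grey.

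Genes with and without a response element core in the window were both among those that fell. Without the WT 3-labelled library, 6 of 12 tested genes with a core fell (median log2 fold change -0.92), as did 9 of 13 with a window but no core (median -1.13). Bst2 and Gbp3 have a pair of overlapping cores, shown above, and did not pass, while Isg20 and Ddx58 have none in the window and fell. For gamma-activated sites, 6 of 9 genes with a match fell (median -1.21) and 9 of 16 without (median -0.95). Of all tested genes 16.1% fell in that fit. No test of these counts was made.

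Per kilobase of annotated exons, the order of the mean levels over the 6 libraries was led by 2 genes that did not pass in either fit. Bst2 had 92.7 CPM per kilobase and Ifi35 59.1, followed by Ifi47 at 30.1, Igtp at 27.1, Irf1 at 18.9 and Ddx58 at 13.7. These means pool libraries that differ, so the place of a gene such as Isg20 (11.3), high in WT 1 and WT 2 alone, stands for neither set of libraries. At the low end were Mx2 (0.0257), Mx1 (0.0517), Oasl2 (0.0604), Oasl1 (0.115), Rsad2 (0.137) and Ifit1 (0.205 CPM per kilobase). Exon lengths join all annotated transcripts of a gene, so they overstate the length of genes with many rare transcripts.

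Interferon ligands were not analysed here, and the receptors were present in all libraries with the gamma receptor chain Ifngr1 changing most. Ifngr1 was at 164 and 163 CPM in WT 1 and WT 2, 62.2 CPM in the WT 3-labelled library and 70.3, 59.2 and 66.1 CPM in KO 1 to KO 3. Ifngr2 stayed between 69.1 and 88.2 CPM. Ifnar1 was at 111, 114 and 67.4 CPM and at 74.2, 69.1 and 74.9 CPM, and Ifnar2 at 84.7, 81.2 and 64.8 CPM and at 70.3, 66.6 and 60.9 CPM. Without the WT 3-labelled library, Ifngr1 fell by 1.32 (SE 0.10, adjusted p = 0.00019), Ifnar1 by 0.62 (SE 0.09, adjusted p = 0.00218) and Ifnar2 by 0.33 (SE 0.10, adjusted p = 0.0493), and Ifngr2 did not pass (-0.21, SE 0.10, adjusted p = 0.147). Il10rb, a chain shared by the receptors of interferon lambda and IL-10, was at 50.6 to 70.4 CPM and did not pass either (-0.27, SE 0.11, adjusted p = 0.0957). Of the 8 measured receptors and kinases, 4 fell and 1 rose in that fit, where 16.1% of all tested genes fell and 17.7% rose, and 0 passed with all 6 libraries. Jak2, the kinase of the gamma receptor, was the one that rose, from 156 and 142 CPM to 253 to 312 CPM with 295 CPM in the WT 3-labelled library (0.97, SE 0.12, adjusted p = 0.00112). Tyk2 was the other that fell (-0.58, SE 0.13, adjusted p = 0.0118), and Jak1 stayed between 536 and 629 CPM. Without both libraries numbered 3, 6 of the 8 genes fell and 1 rose, against 22.7% of all genes each way. In that setting Ifngr2 (-0.26, SE 0.09, adjusted p = 0.0409) and Il10rb (-0.34, SE 0.10, adjusted p = 0.0161) passed as lower.

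**Figure D4:**
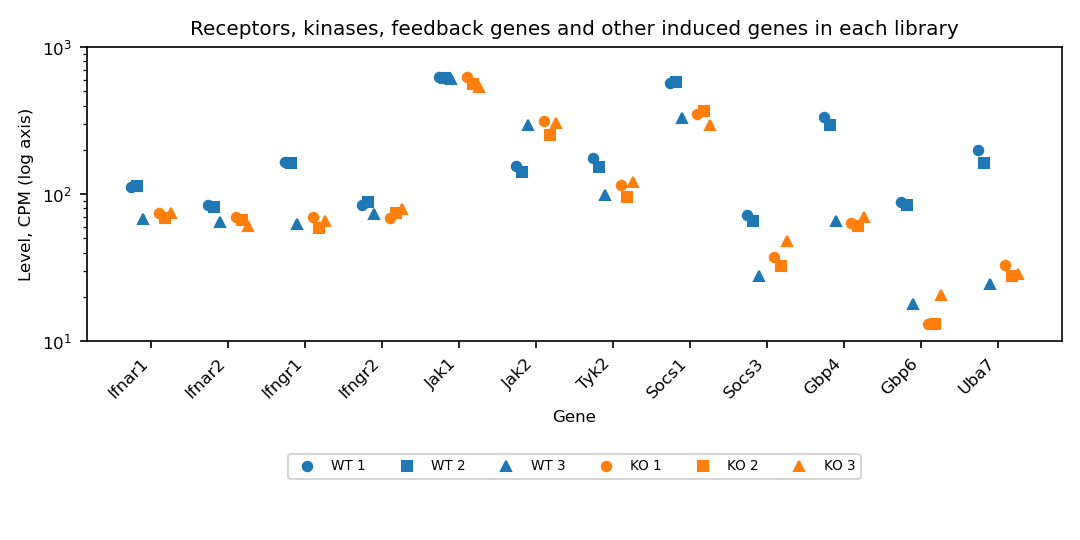
Each point is the level of 1 gene in 1 library in CPM on a log axis, for receptors, kinases, feedback genes and induced genes outside the list; colours are the labels and marker shapes the replicate numbers. Ifngr1, Socs1, Gbp4, Gbp6 and Uba7 are highest in WT 1 and WT 2, Jak2 is lowest there, and Jak1 has 1 level in all libraries.

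Among genes upstream of interferon production, whether the share that fell was below or above that of all genes depended on the fit. Of 12 tested adaptors, kinases and receptors of nucleic acid sensing 1 fell without the WT 3-labelled library: Unc93b1, which carries Toll-like receptors to endosomes, at 33.5, 33.5 and 22.4 CPM and at 23.1, 16.9 and 18.5 CPM (-0.77, SE 0.17, adjusted p = 0.012). All tested genes gave 16.1% lower and 17.7% higher in that fit, where 0 of the list rose. Without both libraries numbered 3 the list had 4 of 11 tested genes lower and 0 higher, against 22.7% of all genes each way. Counts this small do not set the list apart from all genes. The most abundant genes of the list did not pass without the WT 3-labelled library. They were Tmem173, which encodes STING, at 83.7 to 177 CPM, and the kinase gene Tbk1, at 122 to 144 CPM. Both passed as lower without both libraries numbered 3 (-0.35, SE 0.07, adjusted p = 0.00361 and -0.20, SE 0.07, adjusted p = 0.0497). The groups of Tbk1 did not overlap, with knockout lower (1 of the 11 tested genes, against 9.22% of all genes). Irf8, a factor of interferon-producing myeloid cells, was at 32.6, 26.5 and 31.4 CPM and at 34.3, 40.7 and 55.8 CPM. Its groups did not overlap, with knockout higher (1 of the 11 tested genes, against 9.26% of all genes). Irf8 did not pass with all 6 libraries (adjusted p = 0.342) or without the WT 3-labelled library (adjusted p = 0.0917). Among 12 feedback and restraint genes 5 fell without the WT 3-labelled library, against 16.1% of all genes. In the same fit 2 rose, a share close to the 17.7% over all genes. Socs1, the inhibitor of JAK kinases, was at 568, 577 and 330 CPM and at 350, 370 and 294 CPM (-0.75, SE 0.11, adjusted p = 0.0023), and Socs3 at 71.9, 65.6 and 27.7 CPM and at 37.4, 32.3 and 47.7 CPM (-0.81, SE 0.17, adjusted p = 0.0105). Adar, Irf2 and Samd9l were the other 3 that fell. Ptpn2, a phosphatase that acts on JAK and STAT proteins, rose by 0.72 (SE 0.09, adjusted p = 0.00116). The other that rose, Isg20l2, is a nucleolar nuclease named for its likeness to Isg20 and not a known regulator of the pathway. Without both libraries numbered 3, 7 of these 12 genes fell and 4 rose, against 22.7% of all genes each way.

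Further interferon-stimulated genes outside the list were described by a second list of 55, of which 51 were in the table and 49 were tested. With all 6 libraries 0 passed in edgeR's test, 18 were lower at an unadjusted p under 0.05 (10.4% of all genes), and DESeq2 called 5 lower (2.19%) and 0 higher (0.107%). Without the WT 3-labelled library, 29 of 49 fell (16.1% of all genes) and 1 rose (17.7%), with a median log2 fold change of -0.80. The most abundant were Ly6a, which encodes the surface protein Sca-1, at 4068, 4223 and 767 CPM and at 750, 778 and 597 CPM, and Ly6e, at 3105, 3021 and 1220 CPM and at 1152, 1207 and 894 CPM. Uba7, the enzyme that activates ISG15, was at 198, 162 and 24.5 CPM and at 32.9, 27.7 and 28.6 CPM (-2.59, SE 0.13, adjusted p = 3.92e-05 without the WT 3-labelled library). Genes of antigen presentation by MHC class I were among those that fell: Nlrc5, the activator of class I genes, at 150, 138 and 73.1 CPM and at 59.7, 57.3 and 83.4 CPM (-1.11, SE 0.17, adjusted p = 0.00255), and Tapbp, which encodes tapasin, at 692, 716 and 329 CPM and at 286, 329 and 348 CPM (-1.13, SE 0.10, adjusted p = 0.000334). Tap1 (-0.65, SE 0.08, adjusted p = 0.00116) and the immunoproteasome gene Psmb9 (-0.80, SE 0.10, adjusted p = 0.00108) fell as well. The immunoproteasome genes Psmb8 (-0.24, SE 0.14, adjusted p = 0.242) and Psmb10 (0.26, SE 0.15, adjusted p = 0.215) did not pass. Psmb10 passed as higher without both libraries numbered 3 (0.38, SE 0.10, adjusted p = 0.0152). Trim34a, called by DESeq2 too, was at 28.3, 25.1 and 10.7 CPM and at 7.24, 9.64 and 6.83 CPM, groups that did not overlap. In 6 of the 49 tested genes the groups were so separated with knockout lower, against 9.22% of all genes. Ifitm2 and Ifitm3, which block viral entry, fell by 2.31 (SE 0.50, adjusted p = 0.0116) and 1.70 (SE 0.35, adjusted p = 0.00971). Ifitm1, of the same family and at 0.0957 to 4.18 CPM, did not pass (0.04, SE 1.03, adjusted p = 0.981). Ly6a, Ly6e, Uba7, Nlrc5, Tapbp, Tap1, Psmb9, Trim34a, Ifitm2, Ifitm3, Gbp4, Gbp6, Gbp8 and Gbp9 were among the 29 that fell without the WT 3-labelled library. The others were Eif2ak2, which encodes the RNA-activated kinase PKR, Cmpk2, Herc6, Ifi27, Lgals3bp, Slfn2, Slfn5, Trim30a, Parp10, Parp12, Pml, Sp100, Trafd1, Tor3a and Znfx1. The gene that rose without the WT 3-labelled library was Apol9b. It went from 0.197 and 0.196 CPM to between 3.91 and 8.62 CPM, with 4.51 CPM in the WT 3-labelled library. Apol9b has close relatives, and its lowest counts are near the floor. Without both libraries numbered 3, 31 of the 49 genes fell and 4 rose, against 22.7% of all genes each way.

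Markers of ILC2s and of other cells moved with the labels in part, and in bulk samples fewer cells of a type and less RNA per cell cannot be told apart. Of the 16 ILC2 markers 9 fell without the WT 3-labelled library, among them Klrg1 (-1.82, SE 0.15, adjusted p = 0.000252), Nmur1 (-1.82, SE 0.17, adjusted p = 0.000378), Id2 (-1.07, SE 0.08, adjusted p = 0.000187) and Gata3 (-0.75, SE 0.07, adjusted p = 0.000435). Of the same markers Il13 (1.66, SE 0.15, adjusted p = 0.000305) and Il17rb (2.53, SE 0.34, adjusted p = 0.00156) rose. Of all tested genes 16.1% fell and 17.7% rose in that fit. Of 7 plasmacytoid dendritic cell markers, cells known for type I interferon, 5 were in the table and summed to 13.0 to 21.9 CPM under the wild-type and 19.6 to 46.2 CPM under the knockout label, most of it Cox6a2 outside WT 1 and WT 2. Of 12 monocyte, macrophage and dendritic cell markers 11 summed to 778 and 753 CPM in WT 1 and WT 2, 113 CPM in the WT 3-labelled library and 104 to 122 CPM under the knockout label. In WT 1 and WT 2 Ccr2 alone made up 717 and 692 CPM of this, against 54.3 to 61.6 CPM in the other libraries, and most of the rest was the dendritic cell gene Xcr1, at 42.0 to 52.1 CPM in every library. Cd68 was at 7.77, 7.46 and 2.12 CPM and at 3.32, 2.47 and 2.20 CPM (-1.51, SE 0.29, adjusted p = 0.00688). The other 8 markers of that list were at most 3.98 CPM, with Csf1r at 0 in WT 2 and KO 1 and Flt3 at 0 in all but KO 1. NK cell and ILC1 markers (4 of 7) summed to 0.895 to 3.76 CPM and 0.520 to 1.05 CPM, T cell markers (7 of 8) to 25.1 to 42.9 CPM and 27.8 to 29.4 CPM, and B cell markers (3 of 5) to 13.5 to 19.5 CPM and 6.67 to 14.3 CPM. The sum of T cell markers was mostly Cd3g, which fell (-1.16, SE 0.23, adjusted p = 0.00765). Cd5 (0.0327 to 0.298 CPM against 0.797 to 4.05 CPM) and Foxp3 (1.24 to 2.43 CPM against 3.72 to 4.69 CPM) had groups that did not overlap, with knockout higher. Of all tested genes 9.26% were so separated. No marker in the table was at 0 in every library. Granulocyte and mast cell markers (3 of 10) summed to 3.41 to 10.3 CPM and 0.542 to 3.88 CPM. Epithelial, endothelial and stromal markers (5 of 10) summed to 67.8 and 61.0 CPM in WT 1 and WT 2, 108 CPM in the WT 3-labelled library and 120 to 140 CPM under the knockout label. There Pecam1 went from 10.4 and 8.54 CPM to 93.1 CPM in the WT 3-labelled library and 92.0 to 131 CPM in knockout, and Epcam from 57.4 and 52.3 CPM to 14.3 CPM and 8.90 to 13.7 CPM. The share of counts on mitochondrially encoded genes was 0.714% and 0.535% in WT 1 and WT 2, 0.262% in the WT 3-labelled library and 0.230% to 0.433% in knockout. The part of these differences in the results on interferon-stimulated genes was not tested.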

How the data were processed

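RNA from sorted lung ILC2s was measured in 6 libraries, each from 10 ng of RNA, per the labels' protocols. The deposited table holds estimated counts per gene, made by the authors on mm10 with Partek, STAR and CASAVA 1.8.2, whose roles are not stated, per the submitters' processing notes. Between 47.1% and 48.5% of values per library were whole (tolerance 1e-06), and all were rounded. A second deposited table, of normalised signal for 16322 genes, equals the estimated count plus 1 divided by a factor of 31.2 to 36.0 per library. It served only for an alternative, limma-trend on log2 of the signal plus 1.

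Counts were tested with edgeR 4.0.16 in R 4.3.3 (TMM, filterByExpr, robust quasi-likelihood test, Benjamini-Hochberg adjustment). CPM used TMM-adjusted totals, and log2 levels, used for library comparisons, added 0.5 CPM. Alternatives were DESeq2 1.42.0, limma 3.58.1, other scalings and filters, a replicate block and leaving out libraries. The replicate numbers were not taken to pair libraries. The fit was also run on simulated data with the same dispersion for every gene and no discordant library. There, with all 6 libraries, it recovered 92% of log2 changes of 1 and 99% of log2 changes of 2. These settings differ from the data, so the result does not measure what the fit could find here.

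Values per library were to be given for the 3 most abundant genes of each role, the gene with the lowest p, genes whose groups do not overlap and genes against their role's majority direction. The others of the list are given too, Oasl1 and Mx1 by their highest value alone. Pathway genes were named if lowest in p, most abundant, past the threshold without WT 3, or receptors. Members and lists were chosen with earlier results of these data known. Exon lengths came from GENCODE vM21, whose coordinates matched the deposited ones for all 35 genes. 1 gene of the pathway lists is not reported here.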

Additional observations from a re-analysis of the deposited data

How the results depend on the processing

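With all 6 libraries edgeR called 0 genes and 0 of the listed genes (2026 genes and 12 of the listed at an unadjusted p under 0.05), and DESeq2 called 323 genes, 2 of the listed lower. Leaving out 1 library at a time gave 0 to 4991 genes and 0 to 20 of the listed lower, the upper values without the library labelled WT 3. Without both libraries numbered 3 there were 6505 genes and 23 of the listed lower (22.7% of all genes). Other scalings of the fit without WT 3, chosen after seeing the data (DESeq2 size factors, upper quartile, library totals), each gave 21 of the listed lower and 0 higher. The median log2 fold change of the listed genes ran from -0.58 without WT 1 to -1.11 without WT 3. With the replicate block 0 genes were called and the median was -0.72. Deviations of same-numbered libraries from their group means correlated at -0.0173, 0.0209 and 0.0127. Of the knockout libraries, the same-numbered one correlated best with WT 2 and with WT 3, but not with WT 1. The wild-type means include the WT 3-labelled library, which differs from WT 1 and WT 2. These values therefore cannot decide whether the numbers pair libraries. Over 49 named genes and 831 values, 728 kept direction and side of the threshold, 84 passed it newly and 19 reversed, all 19 in 6 genes. None could lose a call, since edgeR made none with all 6 libraries. Stat2 was 0.03 without WT 2 and 0.0017 without KO 1, over a range without single libraries of -0.41 to 0.03. Ifit1 was 0.11 with limma-voom, 0.09 with the block, 1.19 without WT 1 and 0.57 without KO 1 (range -1.07 to 1.19). Bst2 was -0.0032 with no filter, -0.0039 with the 2 CPM filter, -0.0018 with limma-trend, -0.04 without WT 1 and -0.08 without KO 2 (range -0.08 to 0.10). Rtp4 was 0.77 with limma-voom, 0.08 with the block and 0.0011 without WT 1 (range -2.04 to 0.0011). Trim25 was -0.02 without WT 3 and without KO 2 and -0.01 without both libraries numbered 3 (range -0.02 to 0.13). Gbp3 was -0.08 without WT 2 and -0.01 without KO 3 (range -0.08 to 0.41). The cause of these reversals was not tested. Mx1, Mx2 and Oasl1 stayed below 1 CPM in every library, where counting error is large, while Rsad2 also varied between libraries of 1 label, from 0 to 2.55 CPM in knockout.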
